A study of Mus musculus with 12 samples.

Results

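The 99 genes described here were taken by symbol to stand for the subunits of the mitochondrial respiratory chain and of the ATP synthase that completes it. A symbol alone does not make a member a structural subunit, as with Cox7a2l and Atp5s. They are the protein-coding genes of the table whose symbols begin with Nduf (assembly factors left out), Uqcr, Cox4 to Cox8, Atp5 or mt-, together with Sdha, Sdhb, Sdhc, Sdhd and Cyc1, and make up 99 of the 35275 genes and of the 21397 protein-coding genes. The complex was read from the gene symbol alone, with Nduf and mt-Nd as complex I, and not from the place of the protein. By this reading 45 belong to complex I, 4 to complex II, 10 to complex III, 21 to complex IV and 19 to complex V. A total of 86 are nuclear and 13 lie on the mitochondrial genome.

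RNA of sorted hematopoietic stem cells was sequenced in 12 libraries from C57BL/6 mice, in 4 groups of 3. Wild-type mice (Thpo+/+) and mice lacking thrombopoietin, the hormone that maintains stem cells and platelet production (Thpo-/-), were each left without the agonist or given Romiplostim for 10 days. Romiplostim is an agonist of the thrombopoietin receptor and was given into a vein at 100 µg/kg per day. The control groups carry the label untreated, while the labels' protocols name PBS for controls. Sex, age and pooling of animals are not given in the sources used here, and nothing in them says whether the 3 libraries of a group came from separate mice, so p-values measure only the spread between these libraries.

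The respiratory chain passes electrons from NADH and succinate through complexes I to IV to oxygen, and pumps protons across the inner mitochondrial membrane. Complex V, the ATP synthase, lets the protons back and makes ATP. Complex II is the succinate dehydrogenase, shared with the citric acid cycle and coded only in the nucleus, while the other complexes combine nuclear and mitochondrially encoded subunits. Resting hematopoietic stem cells are known for relying little on respiration, and respiration increases as they leave rest and differentiate.

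Values are FPKM, fragments per kilobase of gene scaled to library depth. Levels of different genes can be compared only roughly, and least for members with near-identical copies elsewhere in the genome (below). The depth recovered from the steps of low values was 27.7 to 35.5 M fragments per library. At that depth 3 fragments on 1 kb correspond to 0.0844 to 0.108 FPKM, which covers counting error only. Fold changes are on the log2(FPKM + 1) scale, which understates changes of low genes, and were tested with limma over the 12823 genes that reached 1 FPKM in at least 3 libraries. A gene is said to have risen or fallen when its Benjamini-Hochberg adjusted p was under 0.05. Of the 99 genes 94 were tested, 82 nuclear and 12 mitochondrially encoded. Cox6a2 reached 1 FPKM in 8 and Cox4i2 in 11 libraries, and the other tested members in all 12. The members not tested were mt-Nd4l and 4 isoforms listed at or under 0.15 FPKM in every library, namely Cox7b2, Cox8b, Cox8c and Ndufa4l2.

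The libraries do not hold the same mixture of transcripts, and this moves with the groups. The mean log2 level of 57 markers of B, myeloid, erythroid, T and NK, and stromal and endothelial cells was 2.83 to 2.99 in untreated wild type, 5.61 to 6.45 in untreated knockout, 2.56 to 2.78 in treated wild type and 3.58 to 4.32 in treated knockout. In untreated knockout 10 of 10 B cell markers and 13 of 15 myeloid markers were higher than in untreated wild type, and 11 of 14 stem cell markers were lower. The summed B cell markers ran from 87.9 to 98.6 FPKM in untreated wild type, against 1802 to 4323 FPKM in untreated knockout, and the summed stem cell markers 1580 to 1911 and 574 to 728 FPKM. Of the markers of other cells, Cd8a and Klrd1 were listed at 0 in all 3 untreated wild-type libraries and Pax5 and Cd8a in all 3 treated wild-type libraries, while each of the others had a value above 0 in at least 1 library of every group. The part of these cells in the results was not tested. Y-linked genes averaged 11.3 to 24.9 FPKM in the 3 untreated knockout libraries and at most 0.0389 FPKM in the 3 treated knockout libraries, so that in the knockout groups the agonist and these genes cannot be told apart. In wild type they averaged 0.137 FPKM in untreated replicate 2, 0.0221 FPKM in treated replicate 1 and 18.5 to 23.2 FPKM in the other libraries. The genotype comparisons are therefore uneven in these genes as well. The design text puts the 3 libraries of a group on 1 sequencing run, so run and group cannot be told apart either. Thpo itself was listed at 0 in 10 of the 12 libraries and at no more than 0.0426 FPKM in any, and so does not check the genotype labels. In sorted bulk RNA, fewer cells of a type and less RNA per cell cannot be told apart.

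By FPKM, the highest members in untreated wild-type stem cells were mt-Cytb (4374 ± 1121 FPKM, SD, n = 3), mt-Co1 (2960 ± 1638) and Atp5b (2375 ± 81.3). They code for cytochrome b of complex III, the catalytic subunit of complex IV and the catalytic beta subunit of ATP synthase. Together the nuclear genes summed to 33510, 33130 and 35292 FPKM in the 3 untreated wild-type libraries and to 27364, 28832 and 28591 FPKM in the 3 untreated knockout libraries. With Romiplostim the nuclear sum was 34406, 36397 and 35978 FPKM in wild type and 50662, 33522 and 40178 FPKM in knockout. Every untreated knockout library was below every library of the other groups. The treated knockout libraries spread widely, from replicate 2, inside the wild-type range, to replicate 1, the highest of all. Replicate 1 also had the lowest mean log2 level of the stem cell markers among the 6 treated libraries (4.56, the others 5.24 to 5.56) and the highest of the erythroid markers (6.19, against 4.999 and 5.33 in the other treated knockout libraries), whose part in its level was not tested.

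**Figure D1:**
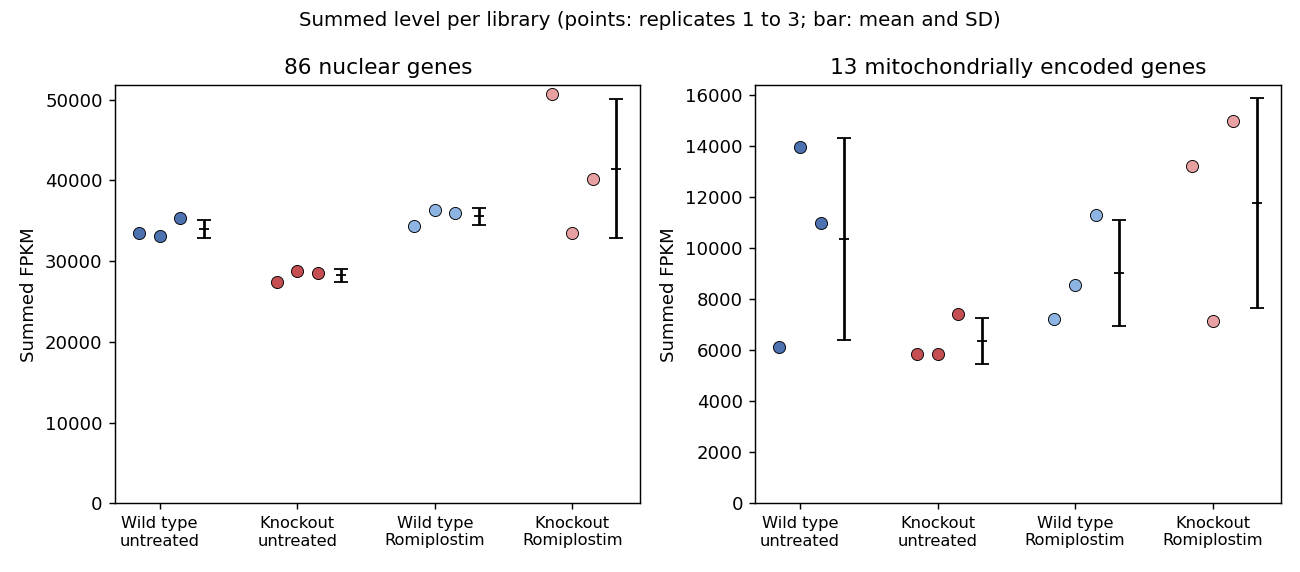
Summed FPKM (axes from 0) of the 86 nuclear genes (left) and the 13 mitochondrially encoded genes (right) in each of the 12 libraries, with the mean and SD of each group of 3. The 3 untreated knockout libraries lie between 27364 and 28832 for the nuclear genes, below all others, while the mitochondrially encoded sums overlap between the groups.

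Without the agonist, the comparison of knockout with wild type asks what the lack of thrombopoietin does to the chain. Here 33 of 82 nuclear members fell and 5 rose, where 45.1% of all genes tested passed, 23% falling and 22.1% rising. The median of the nuclear members was -0.41, against -0.03 over all genes tested, and 51 nuclear members had all 3 knockout libraries below all 3 wild-type libraries (29% of all genes tested), and 8 had all 3 above (27.2%). Most of the falls were in complex I (23 of 37). The others were in complexes III (3 of 9), IV (3 of 15) and V (4 of 17). In IV and V these shares were near the 23% of all genes tested. In complex II 0 of 4 members passed the criterion by limma, and 0 of 4 also at an unadjusted p under 0.05. At that unadjusted p 3287 of the 12823 genes tested were higher and 3498 lower. The number of nuclear falls was 13 with median-of-ratios scaling, 15 without untreated wild-type replicate 3 and 16 without untreated knockout replicate 1, and the median stayed between -0.46 and -0.32 over all alternatives.

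Within complex I, 30 of the 37 tested nuclear members are accessory subunits, which surround the redox and proton-pumping core. Of these 30 members 20 fell and 0 rose (1 had a positive log2 fold change), with a median of -0.49. Over all genes tested 23% fell and 22.1% rose. The division into accessory and core members was made with results known. Ndufa7, an accessory subunit of the matrix arm, had 702, 593 and 569 FPKM in the untreated wild-type libraries, 313, 321 and 342 in untreated knockout, 549, 575 and 584 in treated wild type and 660, 445 and 530 in treated knockout. The untreated knockout libraries thus stood apart from the other 9. Its log2 fold change in untreated knockout was -0.93 (SE 0.15, adjusted p = 0.000425). Ndufa13, also known as GRIM-19, had 204, 198 and 208 FPKM in untreated wild type, against 116, 114 and 136 in untreated knockout, and fell by 0.74 (adjusted p = 0.000396). Other falls were those of Ndufv3 (-0.60), Ndufb4 (-0.75) and Ndufs4 (-0.51), a subunit whose loss in mice is known as a model of mitochondrial disease.

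The core subunits of complex I, which hold the flavin and the iron-sulfur clusters, went both ways. Of 7 nuclear core members 2 rose (Ndufs1 and Ndufv1) and 3 fell (Ndufs7, Ndufs8 and Ndufv2). Over all genes tested 22.1% rose and 23% fell, so the 2 rises are near that share. Ndufs1, the largest subunit of the matrix arm, had 82.1, 73.1 and 70.8 FPKM in untreated wild type, against 148, 135 and 114 in untreated knockout, a rise of 0.80 (SE 0.14, adjusted p = 0.000965). Its treated wild-type libraries had 75.8, 65.9 and 71.4 FPKM and its treated knockout libraries 116, 105 and 82.8. All knockout libraries were thus above all wild-type libraries, with or without the agonist. Ndufv1, the NADH-binding subunit, rose by 0.45 in untreated knockout (adjusted p = 0.0444), a call that was lost under 10 of 17 alternatives.

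In complex III 1 of the 4 larger subunits rose and 3 of the 5 small ones fell. Over all genes tested 22.1% rose and 23% fell, so the 1 rise is near that share. Cyc1, the cytochrome c1 that hands electrons to cytochrome c, rose by 0.48 (adjusted p = 0.0127). The core proteins Uqcrc1 (0.35, adjusted p = 0.148) and Uqcrc2 (0.23, adjusted p = 0.0995) and the Rieske iron-sulfur protein Uqcrfs1 (0.29, adjusted p = 0.0731) had positive values that did not pass. Of the 5 small subunits Uqcrb, Uqcrh and Uqcr10 fell. Uqcrb, which contacts cytochrome b and the quinone site, had 651, 799 and 899 FPKM in untreated wild type, then 384, 442 and 460 in untreated knockout, 721, 846 and 891 in treated wild type and 1046, 668 and 982 in treated knockout. Again the untreated knockout libraries were the lowest of the 12, with a fall of 0.86 (SE 0.19, adjusted p = 0.00304).

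In complex V 1 of 17 nuclear members rose, the catalytic beta subunit, and 4 fell, a share near the 23% of all genes tested. Atp5b had 2298, 2367 and 2460 FPKM in untreated wild type, against 3339, 3357 and 2883 in untreated knockout, a rise of 0.42 (SE 0.14, adjusted p = 0.0294). Its partner Atp5a1 was higher by 0.28 (adjusted p = 0.0587). Atp5e, the small epsilon subunit of the head, fell by 0.63, and the membrane and peripheral subunits Atp5l and Atp5j fell by 0.70 and 0.54. Atp5s, counted here by its symbol, fell by 0.53. The 3 genes of the proton-carrying ring, Atp5g1, Atp5g2 and Atp5g3, had negative values and none passed (0 of 3 also at an unadjusted p under 0.05).

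Complex II was the most even of the complexes. Sdha, its flavin-bearing catalytic subunit, had 812, 592 and 579 FPKM in untreated wild type, then 804, 733 and 570 in untreated knockout, 711, 567 and 620 in treated wild type and 637, 725 and 648 in treated knockout. The 4 groups overlap. The untreated knockout minus wild-type difference was 0.09 ± 0.38 for Sdha, 0.04 ± 0.28 for the iron-sulfur subunit Sdhb, 0.01 ± 0.30 for Sdhc and 0.29 ± 0.38 for Sdhd, both membrane anchors (log2, 95% half-width).

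**Figure D2:**
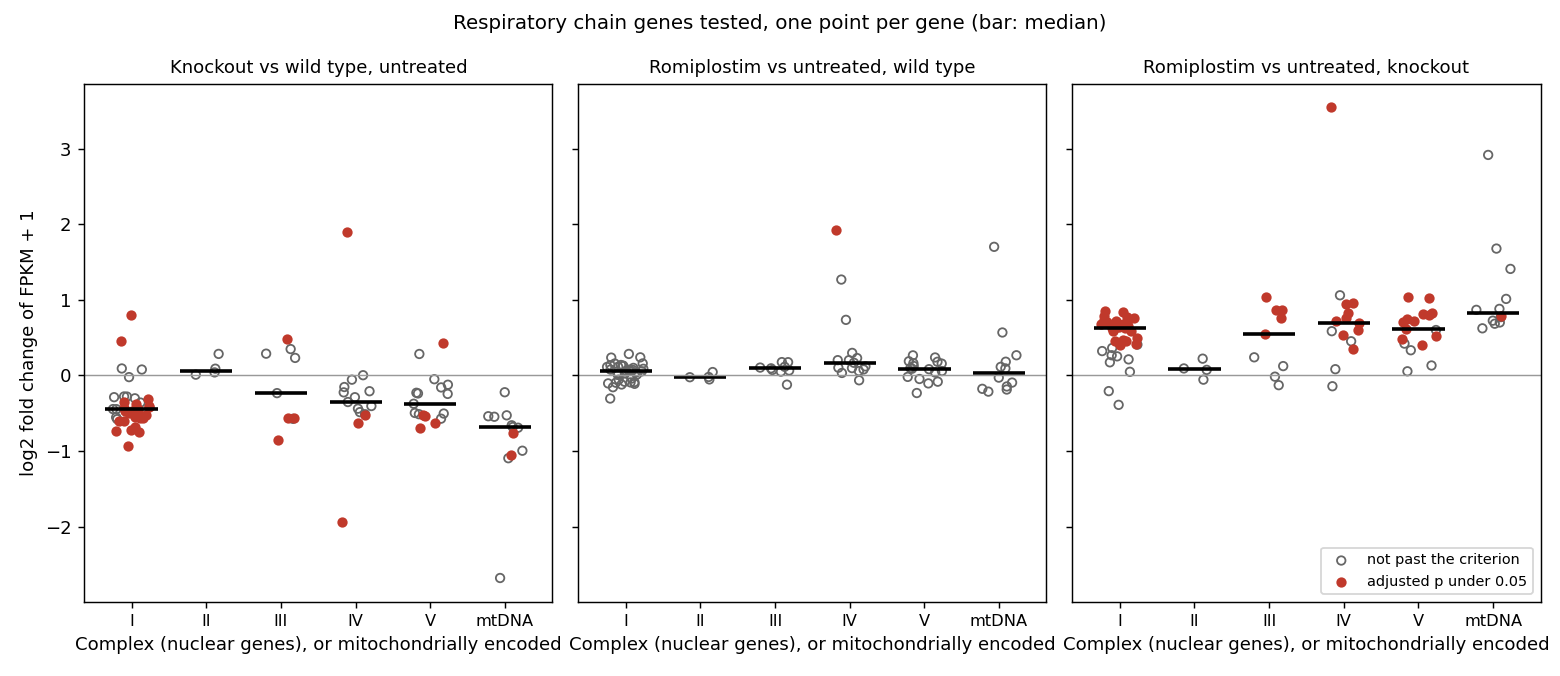
Log2 fold change of FPKM + 1 for each tested gene, by complex for the nuclear genes and together for the mitochondrially encoded ones, in 3 comparisons; filled points passed an adjusted p of 0.05 and bars are medians. In untreated knockout 33 nuclear genes fell and 5 rose, in treated wild type only Cox4i2 passed, and in treated knockout 54 nuclear genes rose.

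Among members past the criterion, the largest change in untreated knockout and with the agonist in either genotype was that of Cox4i2 (chr2:152754173-152765037, plus strand, mm10). Cox4i2 and Cox4i1 are alternative forms of subunit 4 of complex IV, the subunit through which ATP regulates the enzyme, and the Cox4i2 form is known from lung and from cells at low oxygen. Cox4i2 had 7.51, 6.93 and 9.41 FPKM in untreated wild type, then 0.906, 1.19 and 1.96 in untreated knockout, 30.5, 37.5 and 31.0 in treated wild type and 17.1, 31.5 and 32.8 in treated knockout. The 3 untreated knockout libraries were lowest, the 3 untreated wild-type libraries lay above them, and all 6 treated libraries were above both groups. In untreated knockout Cox4i2 fell by 1.94 (SE 0.24, adjusted p = 9.61e-05). With Romiplostim it rose by 1.93 in wild type (adjusted p = 0.00219) and by 3.55 in knockout (adjusted p = 7.76e-06). Between treated knockout and treated wild type the difference was -0.32 ± 0.53 (95% half-width).

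Cox4i1, the general form, had 1017, 1043 and 1039 FPKM in untreated wild type, then 821, 851 and 867 in untreated knockout, 1171, 1226 and 1170 in treated wild type and 1461, 1054 and 1205 in treated knockout. As a share of both forms, Cox4i2 made up 0.764% ± 0.122 in untreated wild type, 0.159% ± 0.0598 in untreated knockout, 2.70% ± 0.237 in treated wild type and 2.24% ± 0.942 in treated knockout (SD, n = 3). Cox4i1 thus remained the main form in every library, the share of Cox4i2 never passing 2.97%.

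**Figure D3:**
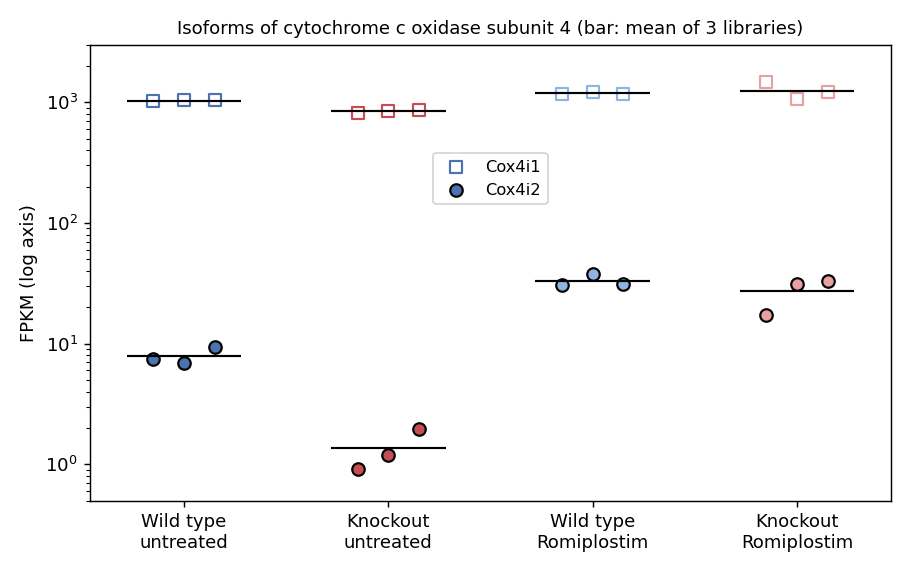
FPKM (log axis) of Cox4i1 (open squares) and Cox4i2 (filled circles) in each library, with the mean of each group of 3. Cox4i2 lies between 0.906 and 1.96 in untreated knockout, between 6.93 and 9.41 in untreated wild type and between 17.1 and 37.5 in the 6 treated libraries, while Cox4i1 stays between 821 and 1461.

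Of the other isoforms with a restricted distribution, Cox6a2, the heart and muscle form of subunit 6a, had low levels. It was listed at 0, 0 and 0.157 FPKM in untreated wild type, with 1.26, 5.48 and 3.08 in untreated knockout, 0.902, 2.67 and 1.32 in treated wild type and 1.21, 2.48 and 8.23 in treated knockout. It rose in untreated knockout by 1.90 (adjusted p = 0.00781) and passed the level filter only through the groups in which it is higher. All 953 bases of Cox6a2 lie within Itgad, an integrin gene on the opposite strand that was itself higher in untreated knockout by 3.54 (adjusted p = 2.31e-05). As the library kit does not mark the strand, reads of both genes cannot be told apart. Cox6b2, known from testis, made up 8.85% ± 1.83 of the Cox6b pair in untreated wild type, 11.1% ± 1.24 in untreated knockout, 13.04% ± 1.09 in treated wild type and 13.8% ± 4.37 in treated knockout (SD, n = 3). Its level was higher than that of Cox4i2, between 61.4 and 389 FPKM in all libraries. Cox7a1, the muscle form of subunit 7a, stayed between 1.39 and 3.48 FPKM in all libraries.

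Romiplostim in wild-type mice moved few of these genes. Of 82 nuclear members 1 rose (Cox4i2) and 0 fell by limma, where 1.84% of all genes tested passed (0.866% rising and 0.975% falling). At an unadjusted p under 0.05, 2 were higher and 0 lower, where 663 and 1045 of the 12823 genes tested were. All 3 treated libraries were above all 3 untreated ones in 13 nuclear members and below them in 2, where this was so for 10.3% and 16.5% of all genes tested. The median of the nuclear members was 0.08, against -0.04 over all genes tested. Of the 12 mitochondrially encoded members 6 had positive and 6 negative values and 0 passed, also at an unadjusted p under 0.05. Their signs rested on single libraries, with 2 positive and 10 negative without untreated wild-type replicate 1 and 11 positive and 1 negative without untreated wild-type replicate 2 or without treated wild-type replicate 1.

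Same-numbered wild-type libraries deviated together, and with the replicate number as a block in a fit of the 6 wild-type libraries, an alternative chosen after seeing the data, 3 nuclear members rose and 0 fell. Beside Cox4i2 (adjusted p = 0.0128) these were Cox6a2, higher by 1.27 (adjusted p = 0.0417), and Cox6b2, higher by 0.74 (adjusted p = 0.032). The limits given above for Cox6a2 hold here too. It was at no more than 0.157 FPKM in untreated wild type, passed the level filter only through the groups in which it is higher, and lies within Itgad. Cox6b2 had 61.4, 111 and 120 FPKM in untreated and 120, 189 and 169 in treated wild type, so that each treated library was above the untreated one of the same number. Over all genes tested 864 passed in that fit, against 236 without the block.

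In knockout mice the agonist was followed by higher levels across complexes I, III, IV and V. Of 82 nuclear members 54 rose and 0 fell by limma (at an unadjusted p under 0.05, 63 were higher and 1 lower), where 29.6% of all genes tested passed, 10.7% rising and 18.9% falling. At that unadjusted p 2022 of the 12823 genes tested were higher and 3381 lower. All 3 treated libraries were above all 3 untreated ones in 62 nuclear members and below them in 0, where this was so for 15.6% and 24.7% of all genes tested. The median of the nuclear members was 0.60, against -0.09 over all genes tested. By complex, 27 of 37 members of complex I, 5 of 9 of complex III, 10 of 15 of complex IV and 12 of 17 of complex V rose, and 0 of 4 of complex II. This comparison shares its untreated knockout libraries with the comparison of the genotypes, so a library that is low there raises values here.

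In complexes I and III a larger share of the accessory and small subunits rose than of the others, in a division made with results known. In complex I 24 of 30 accessory members rose, among them Ndufa13 (0.70, adjusted p = 0.00134), Ndufs4 (0.70, adjusted p = 0.00189) and Ndufc2 (0.84, adjusted p = 0.00204), and 3 of 7 core members rose. Ndufs1 was lower by 0.39 with the agonist (adjusted p = 0.0597) and Ndufv1 by 0.21 (adjusted p = 0.372). In complex III all 5 small subunits rose, Uqcrb by 1.04 (SE 0.19, adjusted p = 0.00206), while 0 of the 4 larger subunits passed by limma and 0 of 4 at an unadjusted p under 0.05. In complex IV, beside Cox4i2, Cox7b rose by 0.96, Cox6c by 0.83 and Cox4i1 by 0.54. Cox7a2l, known for its part in joining complexes III and IV, rose by 0.35 (adjusted p = 0.0382) after its fall of 0.53 in untreated knockout.

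In complex V the gamma subunit Atp5c1, the rotor shaft, had 572, 615 and 595 FPKM in untreated knockout and 964, 799 and 976 in treated knockout, and rose by 0.61 (adjusted p = 0.00358). Its wild-type libraries ranged from 633 to 745 FPKM without and from 736 to 762 FPKM with the agonist. Of the ring genes Atp5g2 and Atp5g3 rose by 1.02 and 0.80, and Atp5g1 was higher by 0.60 (adjusted p = 0.058). Atp5b was higher by 0.13 (adjusted p = 0.511) and Atp5a1 by 0.06 (adjusted p = 0.742).

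The count of rises in treated knockout depended on the fit. It was 20 when only the knockout libraries were fitted, between 24 and 58 with 1 library left out (24 without untreated knockout replicate 1, 31 without treated knockout replicate 3), and 4 with a term for Y-linked expression, under which the median was 0.68. Within groups that term differed only between wild-type libraries, so it was estimated from these. Over all genes tested 2021 passed with only the knockout libraries fitted and 770 with that term, against 3797 in the main fit.

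Under Romiplostim, knockout and wild type did not differ past the criterion in any of the 94 tested members. By limma 0 rose and 0 fell, where 1.37% of all genes tested passed, 0.632% being higher and 0.741% lower. At an unadjusted p under 0.05, 12 nuclear members were higher and 0 lower, where 834 and 1705 of the 12823 genes tested were. The 3 knockout libraries were above the 3 wild-type ones in 12 nuclear members and below them in 0, where this was so for 9.94% and 15.2% of all genes tested. The nearest was Atp5f1, a stalk subunit of ATP synthase, with 480, 439 and 473 FPKM in treated wild type and 668, 586 and 660 in treated knockout (0.46 ± 0.24, 95% half-width, adjusted p = 0.0656). Uqcrfs1 (0.42, adjusted p = 0.105) and Ndufs1 (0.49, adjusted p = 0.107) followed. Without treated knockout replicate 2, the treated library with the most markers of other cells, 9 nuclear members were higher. Over all genes tested 1559 passed in that fit, against 176 with all 12 libraries, and 20.8% of the 1559 were higher.

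Whether Romiplostim acted to a different extent in the genotypes was tested directly by the interaction, where a positive value means a higher change in knockout. It passed for 11 of 82 nuclear members, all positive (of all genes tested 15.6% passed, 5.53% positive and 10% negative), and for 0 of 12 mitochondrially encoded members by limma, of which 1 was higher at an unadjusted p under 0.05. At that unadjusted p 1702 of the 12823 genes tested were higher and 2372 lower. The nuclear members that passed were, beside Cox4i2 (1.62, adjusted p = 0.0111), 7 counted in complex I by symbol, Uqcrb of complex III, Cox7b of complex IV and Atp5f1 of complex V. The count ranged from 1 to 42 with 1 library left out, being 42 without treated knockout replicate 2, 13 without untreated wild-type replicate 1 and 1 to 6 without any of the other 10. It was 0 with the term for Y-linked expression. Over all genes tested 2687 passed without treated knockout replicate 2 and 261 with that term, against 1996 in the main fit.

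Among nuclear members the change followed the length of the coding sequence, which divides large catalytic subunits from small accessory ones. In untreated knockout the median log2 fold change was -0.51 for the 20 members under 300 bases, -0.45 for the 40 of 300 to under 600 bases, -0.23 for the 13 of 600 to under 1200 bases and 0.28 for the 9 of at least 1200 bases. With the agonist in knockout the order was turned around, with medians of 0.76, 0.64, 0.33 and 0.05. Other protein-coding genes, ribosomal proteins left out, showed an order of the same direction, from -0.44 (under 300 bases) to 0.08 (at least 1200 bases) in untreated knockout and from 0.38 to -0.21 with the agonist in knockout. Over the 82 nuclear members Spearman's rho between coding length and change was 0.54 in untreated knockout and -0.67 with the agonist in knockout, against 0.14 and -0.22 over those 11449 other genes. These are descriptions across genes of the same libraries, and genes are not independent replicates. An exception among the long members was Ndufv3, which fell. Another group of short and abundant transcripts, the ribosomal protein genes, moved in the same directions. In untreated knockout 27 of 88 fell and 1 rose (median -0.68), where 23% of all genes tested fell and 22.1% rose. With the agonist in knockout 73 rose and 1 fell (median 1.05), where 10.7% of all genes tested rose and 18.9% fell. The part that transcript length or RNA amplification has in these values was not tested.

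**Figure D4:**
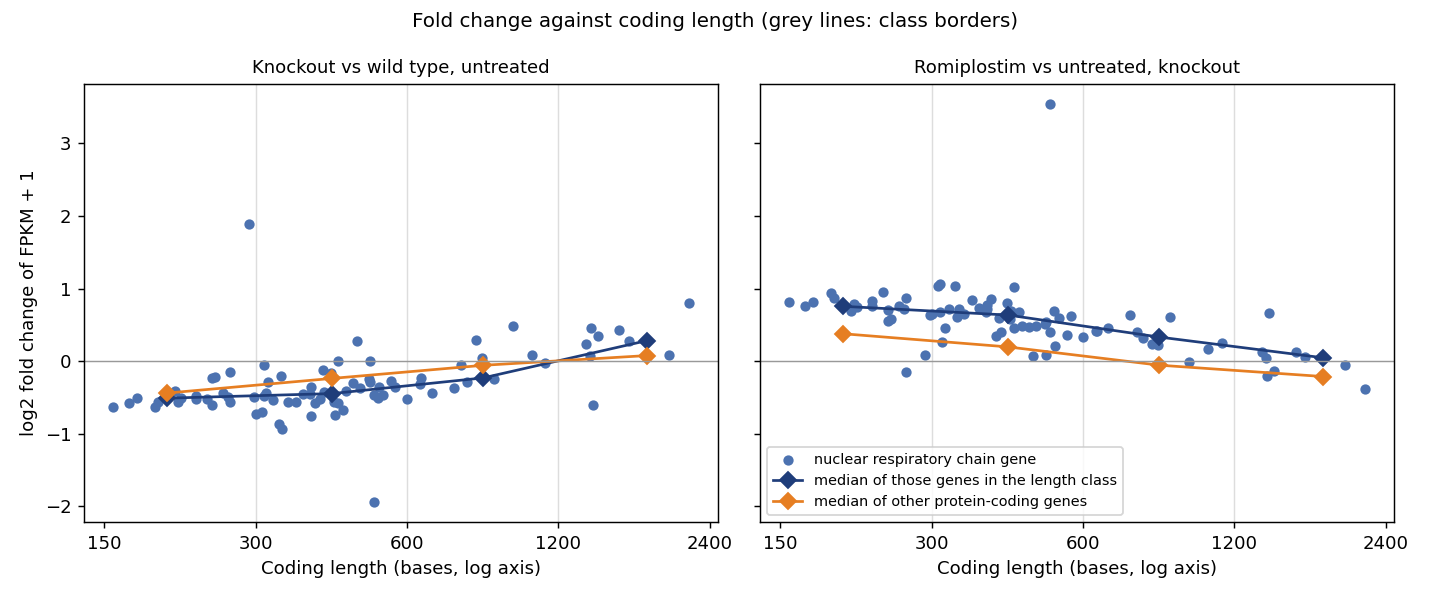
Log2 fold change of FPKM + 1 against the longest coding sequence (bases, log axis) for the 82 nuclear members, with medians of 4 length classes for them and for other protein-coding genes without ribosomal proteins. In untreated knockout the class medians of the members run from -0.51 to 0.28 and in treated knockout from 0.76 to 0.05, in the same order as those of the other genes.

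The promoters of nuclear members were searched for letters of factors known to act on the chain, since many members moved together. RefSeq (GRCm38.p6) gave the 250 bases before the start for 67 of 86 nuclear members. The core of nuclear respiratory factor 1, searched like the others on both strands, was in 19.4% of them and in 9.69% of the promoters of 9246 tested protein-coding genes. The ETS core CCGGAAG of GABPA was in 17.9% and 16.3%, the YY1 core AAGATGGC in 1.49% and 2.46%, and TTCNNNGAA of the STAT factors in 5.97% and 7.21%. A pair of promoters is shown because each holds 3 matches to the first core, in capitals, while the genes differ in response: Ndufb4 (chr16:37654369-37654618, minus strand) fell in untreated knockout and rose with the agonist, and Sdha (chr13:74350241-74350490, minus strand) passed in neither comparison. These matches are letters, not shown binding.
Ndufb4: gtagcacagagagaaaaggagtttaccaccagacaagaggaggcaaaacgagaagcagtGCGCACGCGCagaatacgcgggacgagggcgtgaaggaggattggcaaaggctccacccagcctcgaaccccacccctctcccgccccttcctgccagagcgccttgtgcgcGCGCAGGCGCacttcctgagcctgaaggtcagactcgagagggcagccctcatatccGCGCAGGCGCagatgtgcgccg
Sdha: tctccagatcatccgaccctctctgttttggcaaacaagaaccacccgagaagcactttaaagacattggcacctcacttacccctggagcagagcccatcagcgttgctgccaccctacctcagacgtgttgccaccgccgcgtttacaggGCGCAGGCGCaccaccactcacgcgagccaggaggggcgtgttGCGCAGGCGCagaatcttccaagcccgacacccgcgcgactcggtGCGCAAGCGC

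The mitochondrially encoded members varied far more between libraries of a group than the nuclear ones. Their summed level was 6117, 13958 and 10978 FPKM in untreated wild type, then 5848, 5834 and 7414 in untreated knockout, 7226, 8554 and 11286 in treated wild type and 13185, 7121 and 14948 in treated knockout. The ratio of this sum to the nuclear sum was 0.305 ± 0.119 in untreated wild type, 0.225 ± 0.0301 in untreated knockout, 0.253 ± 0.0541 in treated wild type and 0.282 ± 0.0819 in treated knockout (SD, n = 3), and overlapped between all groups. Untreated wild-type replicates 1 and 2, with 0.183 and 0.421, were the lowest and the highest of the 12 libraries. Few genes carry the mitochondrial sum. In untreated wild type mt-Cytb averaged 4374 FPKM and the 3 genes of complex IV, mainly mt-Co1, 3039 FPKM, of a mean sum of 10351 FPKM. Members with an identical copy on chromosome 1 (below), such as mt-Co2, add little, so the ratio does not measure the whole mitochondrial genome.

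In untreated knockout 2 of 12 mitochondrially encoded members fell and 0 rose by limma (3 lower and 0 higher at an unadjusted p under 0.05). For comparison, 23% of all genes tested fell, and 3498 of 12823 were lower at an unadjusted p under 0.05. The median of the 12 was -0.69, but -1.13 without untreated wild-type replicate 1 and -0.38 without untreated wild-type replicate 2. mt-Cytb, the only mitochondrially encoded subunit of complex III (chrM:14145-15288), had 3225, 5465 and 4434 FPKM in untreated wild type, then 2314, 2421 and 2825 in untreated knockout, 3502, 3451 and 4391 in treated wild type and 4887, 3098 and 5438 in treated knockout. All 3 untreated knockout libraries were below the other 9. It fell by 0.77 in untreated knockout (SE 0.25, adjusted p = 0.0242) and rose by 0.79 with the agonist in knockout (adjusted p = 0.0311). mt-Atp8, a small membrane subunit of complex V, had 136, 294 and 149 FPKM in untreated wild type, against 78.6, 79.0 and 104 in untreated knockout, and fell by 1.06 (adjusted p = 0.0226). Its calls and that of mt-Cytb in untreated knockout missed the criterion under 5 and 7 of 17 alternatives, both of them without untreated wild-type replicate 2 and without untreated knockout replicate 1 or 2. The rise of mt-Cytb in treated knockout missed it under 8 of 17.

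The other genes of this genome did not pass in either comparison. mt-Nd1 and mt-Co1, the highest of them by FPKM, had log2 differences of -0.22 ± 0.68 and -0.54 ± 1.01 in untreated knockout (95% half-width). mt-Nd2, mt-Nd4, mt-Nd5 and mt-Nd6 ranged from -0.69 to -0.53, mt-Atp6 was at -1.10, mt-Nd3 at -0.996 and mt-Co2 at -0.66, each with an adjusted p of at least 0.135. With the agonist in knockout all 12 had positive values (median 0.83), and 1 rose, where 10.7% of all genes tested rose, while 6 were higher at an unadjusted p under 0.05. At that unadjusted p 2022 of the 12823 genes tested were higher. mt-Nd5 and mt-Nd6 overlap by 14 bases on opposite strands, and mt-Atp6 and mt-Atp8 by 43 bases on the same strand.

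Some of these values are shared with copies of the mitochondrial genome in the nucleus. In a stretch of chromosome 1 (mm10), 7 annotated pseudogenes match mitochondrially encoded members at no less than 99.7% identity. They match mt-Co1, mt-Co2, mt-Co3, mt-Atp6, mt-Nd3, mt-Nd4 and mt-Nd4l. Fragments from an identical stretch fit both places, so the table can divide them. The copy of mt-Co3 (Gm28437, chr1:24613189-24613971) has 0 mismatches over 783 bases and that of mt-Nd3 (Gm28438, chr1:24612775-24613119) has 1 over 345. A stretch of each pair is printed to show what an aligner has to tell apart, with the mismatch in capitals.
mt-Co3: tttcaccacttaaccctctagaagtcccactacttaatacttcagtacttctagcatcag
Gm28437: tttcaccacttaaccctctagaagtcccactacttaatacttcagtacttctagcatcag
mt-Nd3: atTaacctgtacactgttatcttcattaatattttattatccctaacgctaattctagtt
Gm28438: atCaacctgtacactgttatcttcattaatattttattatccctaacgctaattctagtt

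mt-Co3, the third mitochondrially encoded subunit of complex IV (chrM:8607-9390), was the tested member whose copy held the largest share. It had 2.54, 105 and 19.5 FPKM in untreated wild type, then 1.602, 1.83 and 2.98 in untreated knockout, 69.3, 41.4 and 88.2 in treated wild type and 7.96, 8.14 and 153 in treated knockout. The identical copy had 4.97, 106 and 50.6 FPKM, then 4.09, 17.4 and 7.57, then 74.4, 10.7 and 86.7, and then 14.2, 5.31 and 11.1 FPKM in the same order of libraries. Over all libraries the copy held 43.9% of the level of the pair, and from 6.74% to 90.5% in single libraries. The log2 difference of mt-Co3 in untreated knockout, -2.68 ± 2.57 (95% half-width, adjusted p = 0.0826), is thus a value of the annotated place, not of the transcript. mt-Nd4l was divided in the same way (54.3% in its copy) and mt-Atp6 less so (10.8%). The copies of mt-Co1, mt-Co2, mt-Nd3 and mt-Nd4 held 0.94%, 4.31%, 2.38% and 0.0403%. A small share does not show that a member is unaffected. mt-Co2, identical to its copy over 681 bases, averaged only 32.5 FPKM and mt-Nd3 14.3. mt-Co1, whose copy aligns over 483 bases, averaged 2652 FPKM and mt-Nd4, with 876 identical bases, 317. The cause of these low levels was not tested. Among nuclear members 15 had copies of at least 97% identity over at least 150 bases, and in 0 did the copies hold more than 10% of the summed level.

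**Figure D5:**
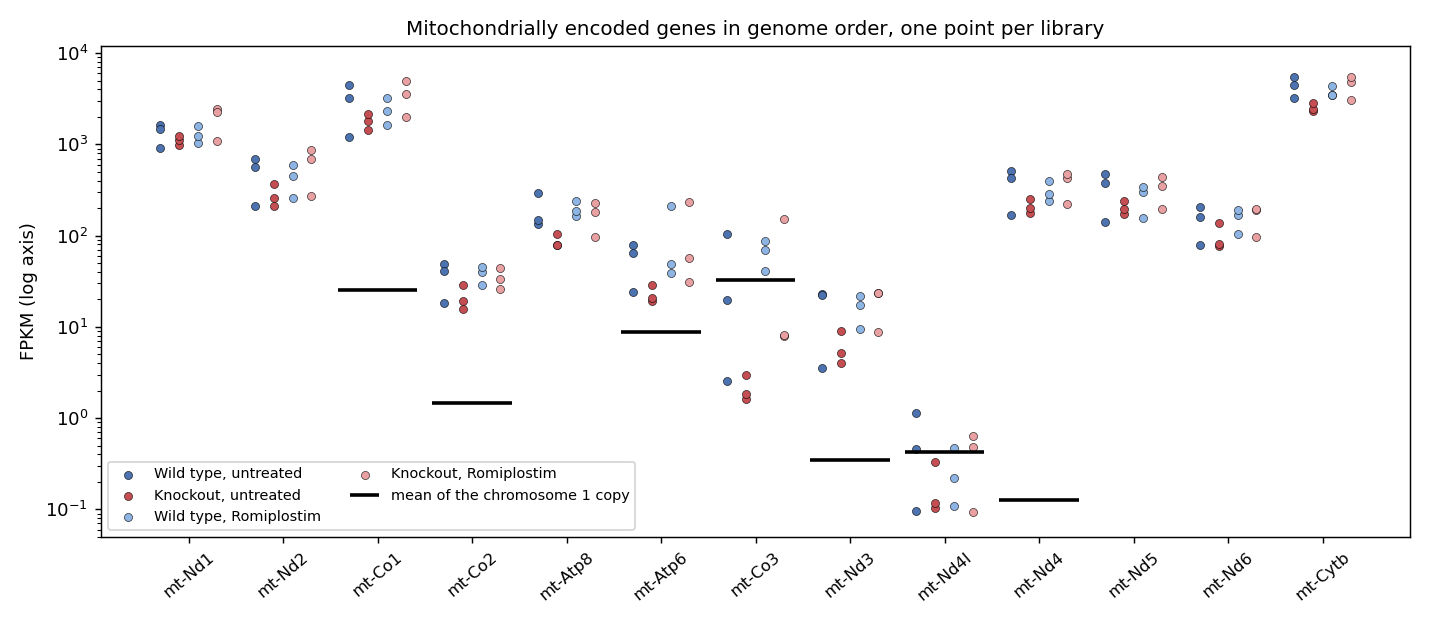
FPKM (log axis) of the 13 mitochondrially encoded genes in genome order, 1 point per library and group; black bars are means over the 12 libraries of their chromosome 1 copies. mt-Co3 runs from 1.602 to 153, and its copy averages 32.7.

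The genes around the chain are read against the 23% of all genes tested that fell and the 22.1% that rose in untreated knockout, and the 18.9% that fell and 10.7% that rose with the agonist in knockout. Of 42 tested assembly factors, which build the complexes and are no part of them, 18 fell and 3 rose in untreated knockout (median -0.22), and 9 rose and 1 fell with the agonist in knockout. Cox14, an assembly factor of complex IV, had 408, 378 and 389 FPKM in untreated wild type, against 171, 169 and 179 in untreated knockout, and fell by 1.18 (adjusted p = 9.76e-06). Sdhaf4 fell by 0.91 and Ndufaf2 by 0.83, and with the agonist in knockout Cox14, Sdhaf4 and Ndufaf2 rose by 0.77, 0.70 and 0.81. Of 17 carriers of electrons and quinone synthesis genes 3 fell, a share under that of all genes tested, and 0 rose in untreated knockout by limma (median 0.03). Coq8a was among the falls (-1.54), and cytochrome c itself, Cycs, was at 0.06 (adjusted p = 0.814).

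Of 24 genes of mitochondrial biogenesis and expression of its genome 7 rose and 2 fell in untreated knockout, near the share of rises over all genes tested, and their median was 0.0019. Nrf1, nuclear respiratory factor 1, had 32.6, 30.9 and 32.1 FPKM in untreated wild type, then 62.4, 57.1 and 48.3 in untreated knockout, 39.3, 34.2 and 35.4 in treated wild type and 30.6, 39.2 and 31.4 in treated knockout. The untreated knockout libraries were the highest of the 12, with a rise of 0.79 (adjusted p = 0.000546) and a fall of 0.71 with the agonist (adjusted p = 0.00219). Gabpa rose by 0.79 and Polg, the polymerase of the mitochondrial genome, by 1.03, and with the agonist they fell by 0.55 and 0.96. Tfam, which packages and transcribes that genome, was at -0.06 (adjusted p = 0.682). Of 17 citric acid cycle genes 9 rose and 1 fell in untreated knockout, with a median of 0.47. Citrate synthase, Cs, rose by 1.04 (adjusted p = 0.000107) and fell by 0.49 with the agonist in knockout (adjusted p = 0.0157).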

How the data were processed

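The authors deposited 1 table of FPKM per gene and library. Per the submitters' processing notes, build mm10 and the tools TopHat2 and Cufflinks (2.2.1) were used, and what each did is not given in the sources used here. Per the labels' protocols, cDNA came from the SMARTer Ultra Low RNA kit, a kind that leaves the strand unmarked. The annotation release behind the table is not given in the sources used here. Ensembl identifiers were matched to GENCODE M21 on the same build (34490 of 35275 matched). No column was left without a sample.

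Values were converted to log2(FPKM + 1). Genes with at least 1 FPKM in at least 3 libraries were fitted with limma 3.58.1 in R 4.3.3 (4 group means over 12 libraries, intensity trend, two-sided, Benjamini-Hochberg over all genes tested, adjusted p under 0.05), for 5 contrasts. The fit was tested on simulated data. With 3 libraries against 3, the smallest p of an exact permutation test is 0.1. Same-numbered libraries deviated together in all 3 pairs between the wild-type groups (correlations of 0.12 to 0.40, over 0.1 in each) and not in every pair of any other comparison, so the blocked value is given for the agonist in wild type. Over all pairs between groups, 6 of 18 same-numbered and 9 of 36 differently numbered pairs were over 0.1, with maxima of 0.40 and 0.32. No label says what the number marks. The depth recovered from low values is an estimate, as 56.1% to 60.7% of those used were whole within 0.05. Copies were searched with blastn 2.17.0.

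Members, gene lists, subunit roles and alternatives were chosen with earlier results of these data known, so counts of lists and roles are descriptions. By rule every member could be named, always the mitochondrially encoded, catalytic and tissue-restricted ones and up to 3 others per contrast and complex with the smallest p, and from each other list up to 3 genes per contrast by smallest p. Cycs, Tfam and Itgad were named outside this rule after their values were seen. Alternatives covered the pseudocount, filter, scaling, trend, libraries fitted, replicate block, Y-linked expression and each library left out.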

Additional observations from a re-analysis of the deposited data

Results flagged for a closer look

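The agonist effect differed between the genotypes in 11 members by the interaction term of limma, on the log2 scale, with positive values where the change was higher in knockout. The differences were 1.62 for Cox4i2, 1.10 for Ndufa1, 1.02 for Cox7b, 0.97 for Uqcrb, 0.86 for Ndufa4, 0.85 for Ndufa7, 0.72 for Ndufv2, 0.62 for Ndufa13, 0.62 for Ndufb5, 0.60 for Ndufs4 and 0.51 for Atp5f1. In Cox4i2 the agonist effect was positive in both genotypes (1.93 and 3.55). In Atp5f1 it was -0.11 in wild type, which did not pass, and 0.40 in knockout (adjusted p = 0.0178), where it rose. The call of Cox4i2 was lost under 1 of 22 alternatives, the term for Y-linked expression (adjusted p = 0.0562), and that of Uqcrb under 10 of 22. Markers of other cells and Y-linked genes moved with the same contrast, and their part in it was not tested.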

How the results depend on the processing

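No direction of a member past the criterion was reversed. In untreated knockout the 5 nuclear rises became 3 without a level filter, 3 with only the groups compared, 3 with the term for Y-linked expression and 8 after quantile normalization, and the 33 falls became 13 with median-of-ratios scaling. With 1 library left out the rises ranged from 2 to 7 (2 without untreated wild-type replicate 2 or untreated knockout replicate 2) and the falls from 15 to 27 (15 without untreated wild-type replicate 3, 16 without untreated knockout replicate 1). In treated wild type the 1 rise became 2 with a pseudocount of 0.1 and 2 with only the groups compared, and stayed at 1 with each library left out. In treated knockout the 54 rises became 20 with only the groups compared and 4 with the term for Y-linked expression, and ranged from 24 to 58 with 1 library left out. The 0 falls there became 1 without a level filter, 1 after quantile normalization, 1 after rescaling without the mitochondrially encoded genes and 1 on leaving out the library with most markers of other cells from each knockout group (replicate 3 of the untreated, replicate 2 of the treated), with a range of 0 to 1. Between the treated genotypes the 0 higher members became 9 without that pair, with a range of 0 to 9. The 11 positive interactions became 3 without a level filter, 4 with median-of-ratios scaling, 0 with the term for Y-linked expression and 41 without that pair, with a range of 1 to 42, and the 0 negative ones became 1 with a pseudocount of 0.1. Over all genes tested, 1712 passed between the treated genotypes without that pair, against 176 in the main fit. In the interaction 2801 passed without it, against 1996. The cause of these shifts was not tested.

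Replicate numbers are shared by the groups, and same-numbered libraries deviated together in every pair only between the wild-type groups. With the replicate block in a fit of the 6 wild-type libraries, chosen after seeing the data, the 1 rise in treated wild type became 3. With the replicate block over all 12 libraries it stayed at 1, the 11 positive interactions became 7, the 54 rises in treated knockout 53 and the 0 falls 1, and the 33 falls in untreated knockout 29.

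Over all genes, quantile normalization raised the median in treated knockout by 0.16 and in the interaction by 0.13, and of the genes called, those higher went from 36.3% to 58.2% and from 35.5% to 55.5%. In treated knockout the higher genes were 47.6% with median-of-ratios scaling and 25.3% after rescaling without the mitochondrially encoded genes. The median of the nuclear members stayed between -0.46 and -0.32 in untreated knockout and between 0.43 and 0.77 in treated knockout under all alternatives run.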
